A study of Mus musculus with 9 samples.

Results

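Cathepsins are the proteases that break down proteins inside lysosomes and late endosomes, and legumain is an asparagine-specific protease of the same compartments. The 10 genes described here are Ctss, Ctsl, Ctsb, Ctsh, Ctsz and Ctsf, which encode cysteine cathepsins, Ctsd and Ctse, which encode aspartic cathepsins, Ctsa, which encodes a serine carboxypeptidase, and Lgmn, which encodes legumain. They were chosen by name, with earlier results of these data known, and each was found by its symbol among the 43629 genes of the deposited table. All 10 passed the filter on low values and were among the 15948 genes tested.

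The data are RNA sequencing of mouse bone marrow cells positive for c-KIT, also called CD117, a growth factor receptor of blood stem and progenitor cells and of mast cells. The 9 libraries form 3 genotypes of 3 libraries each: WT, Cbfb+/mDE (called mDE here) and Cbfb+/MYH11 (called MYH11 here). The MYH11 allele encodes CBFβ-SMMHC, a leukaemia fusion protein that joins the transcription factor subunit CBFβ to the tail of smooth muscle myosin, and the mDE allele encodes that fusion with an altered C-terminal multimerization domain. By its title, the study asked whether that domain is needed for leukaemia. Mice of all groups were of strain C57BL/6 and had been given pIpC (polyinosinic-polycytidylic acid, an inducer of interferon), the WT controls included. Cells were taken with magnetic beads against CD117, and total RNA was extracted. The labels give no age, no Cre or other driver for the alleles, and no statement on whether each library is its own animal. The p-values therefore cover the spread among these libraries alone, and that spread may be technical.

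Most cathepsins are made as inactive precursors, carry a mannose 6-phosphate tag that sorts them to lysosomes, and are activated there by acid and by other proteases. In macrophages, dendritic cells and B cells they degrade engulfed protein and trim the invariant chain, the chaperone (Cd74) that blocks the peptide groove of MHC class II until it is cut away. The factors Tfeb, Tfe3 and Mitf are known to raise many lysosomal genes together through the E-box CACGTG, and PU.1, a factor of myeloid cells, binds sites with the core GAGGAA.

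In the MYH11 libraries 7 of the 10 genes rose against WT, from 1.95-fold for Ctsh to 7.68-fold for Ctss, and Ctse fell 5.31-fold. Ctsd and Ctsf did not pass the test. In the mDE libraries 0 of the 10 passed against WT. The deposited values are normalised reads, that is, gene counts divided by 1 scaling factor per library, and a fold is a ratio of group means. Differences on the log2(value + 1) scale were tested with limma over all genes, two-sided, with Benjamini-Hochberg adjustment and a threshold of 0.05. Changes were widespread in MYH11 against WT: 59.8% of all tested genes passed, 32% upwards and 27.8% downwards, so the count of 8 of 10 is to be read against that share. The MYH11 and WT libraries did not overlap for 8 of the 10, beside 68.7% of all tested genes. A rise of at least 2-fold that passed the test was seen for 5 of the 10 and for 14.5% of all tested genes. The median log2 difference was 1.11 over the 10 genes and 0.02 over all tested genes. As the 10 genes were chosen with earlier results of these data known, these contrasts with all genes are a description only.

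The region before the start of a gene can hold sites for transcription factors, and these short stretches are shown as a description. Their part in the differences was not tested. RefSeq promoter sequences of GRCm38.p6 were at hand for 7 of the 10 genes, with 9 start sites between them, and the 250 bases before each start were searched on both strands for 3 letter strings. The E-box CACGTG stood in 5 of the 9 (in Ctsa, Ctsd, Ctsf, Ctsl and Lgmn) and in 6.02% of 32851 promoters of the same length. The strings do not overlap each other in these windows. A RUNX core TGTGGT, the motif bound by the partner of CBFβ, stood in 3 of the 9 (both starts of Lgmn and one of Ctsa) and in 14% of all promoters. A PU.1 core GAGGAA stood in 1 of the 9, that of Ctss, 164 bases before the start, and in 23.3% of all promoters. None of the 3 strings stood in the window of Ctsz. The 6 E-boxes of the 5 genes are printed here with the bases around them, 5′ to 3′ on the strand of the gene, with the motif in capitals and the distance counted back from the RefSeq start.
Ctsa, chr2:164833749-164833778, plus strand, 12 bases before, in an exon of another transcript of the gene: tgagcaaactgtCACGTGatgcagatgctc
Ctsd, chr7:142387908-142387937, minus strand, 98 bases before, in an exon of another transcript: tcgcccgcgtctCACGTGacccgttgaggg
Ctsd, chr7:142388048-142388077, minus strand, 245 bases before, upstream of the annotated gene: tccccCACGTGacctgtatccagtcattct
Ctsf, chr19:4855074-4855103, plus strand, 79 bases before, upstream of the annotated gene: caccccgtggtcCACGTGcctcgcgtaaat
Ctsl, chr13:64370739-64370768, minus strand, 236 bases before, in an exon of another transcript: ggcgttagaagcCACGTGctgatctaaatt
Lgmn, chr12:102439124-102439153, minus strand, 49 bases before, in an intron of a longer transcript: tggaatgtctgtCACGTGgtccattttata
A match of letters is a description and not a bound site. The string was present both in genes that rose (Ctsa, Ctsl, Lgmn) and in Ctsd and Ctsf, which did not pass the test. The window of Ctss, the gene with the largest rise of the 10, is shown whole, since it held the PU.1 core and no E-box. It lies upstream of the annotated gene and overlaps no exon of it.
Ctss, chr3:95526536-95526785, plus strand, with GAGGAA in capitals: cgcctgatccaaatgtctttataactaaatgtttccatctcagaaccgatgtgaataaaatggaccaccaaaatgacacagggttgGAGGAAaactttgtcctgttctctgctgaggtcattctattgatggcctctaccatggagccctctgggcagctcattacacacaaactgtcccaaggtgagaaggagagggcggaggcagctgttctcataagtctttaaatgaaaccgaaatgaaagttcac

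Ctss (chr3:95526786-95556403, plus strand, GRCm38), the cathepsin best known for cutting the invariant chain in antigen-presenting cells, rose most. Its values were 2498, 3496 and 3856 normalised reads in the WT libraries, 2457, 3535 and 4515 in the mDE libraries, and 27924, 22010 and 25715 in the MYH11 libraries. The lowest MYH11 library was far above the highest of the other 6. The WT range lay within the wider mDE range, in which replicate 3 was above every WT library. The mean was 3284 ± 703 in WT (SD, n = 3) and 25216 ± 2988 in MYH11, a log2 difference of 2.96 (SE 0.22, limma adjusted p = 5.29e-06). Between mDE and WT the log2 difference was 0.07, with a 95% interval from -0.43 to 0.58 (limma adjusted p = 0.878).

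**Figure D1:**
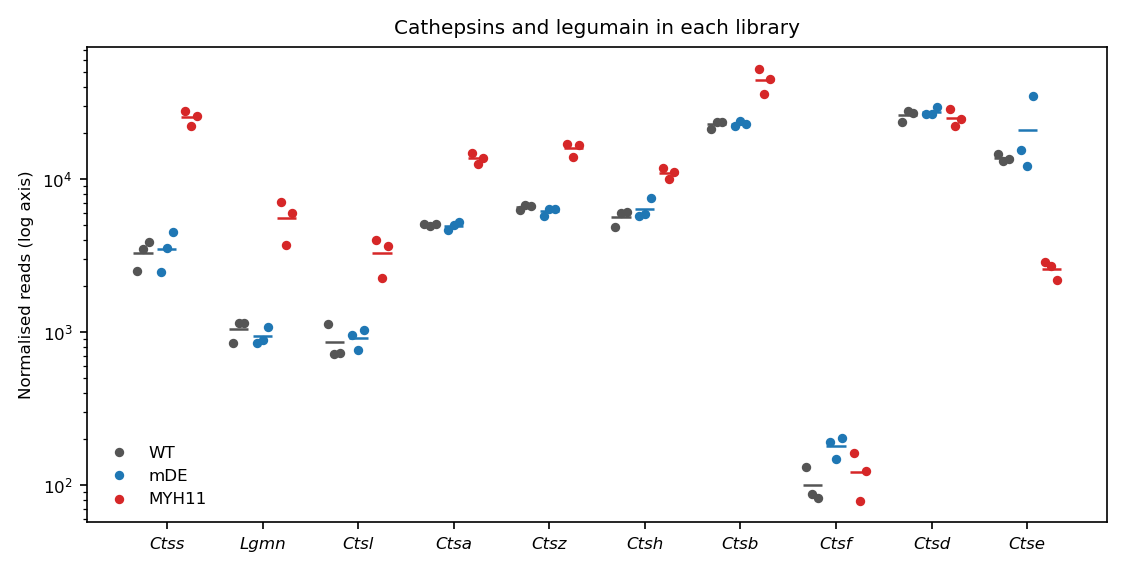
Normalised reads of the 10 genes in each of the 9 libraries, on a log axis. Each point is a library and each bar a group mean. The MYH11 points of Ctss, Lgmn, Ctsl, Ctsa, Ctsz, Ctsh and Ctsb lie above all WT points, those of Ctse lie below, and 1 mDE library stands above the others for Ctse.

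Ctsl (chr13:64359337-64370890, minus strand), a broad endopeptidase that matures other enzymes and trims the invariant chain in thymic epithelium, also rose. It stood at 1123, 724 and 728 normalised reads in WT, at 963, 764 and 1026 in mDE, and at 3985, 2267 and 3649 in MYH11. The MYH11 libraries did not overlap the others, although replicate 2 was well below the other two. The rise was 3.85-fold, a log2 difference of 1.93 (SE 0.24, limma adjusted p = 9.89e-05). For mDE against WT the log2 difference was 0.12, with an interval from -0.42 to 0.65. Ctsl belongs to a mouse gene cluster with near relatives of the placenta, of which Ctsj, Ctsm and Ctsll3 were at 0 reads in all 9 libraries and Ctsr was at 0 in all but 1.

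Ctsb (chr14:63122462-63145923, plus strand), which encodes an enzyme with both endopeptidase and carboxypeptidase activity, had one of the highest read counts of the 10. Its values were 21208, 23609 and 23396 normalised reads in WT, 22276, 23774 and 22859 in mDE, and 52527, 35728 and 45254 in MYH11. All MYH11 libraries were above all others, with replicate 2 lowest. The rise was 1.96-fold (log2 difference 0.95, SE 0.12, limma adjusted p = 1.33e-04), while mDE differed from WT by 0.02 on the log2 scale, with an interval from -0.26 to 0.29.

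Ctsh (chr9:90054152-90076089, plus strand) encodes an aminopeptidase that removes residues from the front end of proteins. It was at 4871, 5952 and 6085 normalised reads in WT, at 5774, 5915 and 7489 in mDE, and at 11792, 10055 and 11069 in MYH11. The MYH11 libraries were again above all others, by 1.95-fold over WT on the mean (log2 difference 0.96, SE 0.12, limma adjusted p = 1.01e-04). The mDE libraries overlapped WT, with a log2 difference of 0.18 and an interval from -0.09 to 0.45.

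Ctsz (chr2:174427493-174439039, minus strand) encodes a carboxypeptidase that removes single residues from the tail end of proteins. It was at 6292, 6742 and 6693 normalised reads in WT, at 5720, 6380 and 6336 in mDE, and at 16800, 14014 and 16702 in MYH11. Its groups were tight, and the MYH11 libraries stood 2.41-fold above WT on the mean (log2 difference 1.26, SE 0.08, limma adjusted p = 1.78e-06). The mDE difference from WT was -0.10 on the log2 scale, with an interval from -0.28 to 0.08.

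Ctsf (chr19:4855130-4860918, plus strand), a cathepsin with an unusually long pro-region that can also process the invariant chain in macrophages, had the fewest reads of the 10. It stood at 132, 87.3 and 82.2 normalised reads in WT, at 193, 147 and 202 in mDE, and at 162, 79.3 and 123 in MYH11. The MYH11 libraries spread across the WT range, and the log2 difference of 0.24 did not pass (interval -0.39 to 0.88, limma adjusted p = 0.48). It was the only one of the 10 genes whose mDE libraries did not overlap WT, and 26.1% of all tested genes had non-overlapping mDE and WT libraries. The log2 difference between mDE and WT was 0.86, with an interval from 0.23 to 1.496. The unadjusted limma p was 0.0134 and the adjusted p was 0.152, so it was not called. Between MYH11 and mDE the log2 difference was -0.62 (interval -1.25 to 0.02, limma adjusted p = 0.0907), and without MYH11 replicate 1 it was -0.85 and passed (limma adjusted p = 0.0332).

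The pair of aspartic cathepsins differed from each other. Ctsd (chr7:142375911-142388038, minus strand) encodes the main aspartic protease of lysosomes in most cells. Its values were 23544, 27884 and 26997 normalised reads in WT, 26689, 26471 and 29522 in mDE, and 28742, 22156 and 24539 in MYH11. The 3 groups overlapped. The log2 difference was -0.06 for MYH11 against WT (interval -0.30 to 0.17, limma adjusted p = 0.636) and 0.08 for mDE against WT (interval -0.16 to 0.31).

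Ctse (chr1:131638306-131675505, plus strand) encodes an aspartic protease of endosomes rather than lysosomes, found in blood cells and in the stomach lining. It was the only one of the 10 genes to fall in MYH11. Its values were 14618, 13129 and 13514 normalised reads in WT, 15567, 12075 and 34585 in mDE, and 2882, 2704 and 2183 in MYH11. Every MYH11 library was below every other library, and mDE replicate 3 stood apart above all. The fall was 5.31-fold against WT (log2 difference -2.42, SE 0.32, limma adjusted p = 1.47e-04) and 8.01-fold against mDE (log2 difference -2.86, limma adjusted p = 5.74e-05). Without mDE replicate 3 the fall against mDE was 5.34-fold (log2 difference -2.41, limma adjusted p = 7.46e-06). The log2 difference between mDE and WT was 0.44, with an interval from -0.27 to 1.15 (limma adjusted p = 0.466). In mDE replicate 3 Ctse was at 2.5 times the mean of the other mDE libraries, and Cd74 was at 2.18 times, while neutrophil markers took 14.5% of its reads against 11.9% and 11.6% in the other mDE libraries. The part of these in the Ctse value was not tested.

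Ctsa (chr2:164832873-164841032, plus strand) encodes a serine carboxypeptidase that also protects β-galactosidase and neuraminidase from breakdown in a shared complex. It was at 5068, 4915 and 5080 normalised reads in WT, at 4636, 5040 and 5223 in mDE, and at 14867, 12442 and 13682 in MYH11. WT and mDE were nearly level, with an mDE difference of -0.02 on the log2 scale (interval -0.18 to 0.14). The MYH11 libraries were 2.72-fold above WT (log2 difference 1.44, SE 0.07, limma adjusted p = 5.28e-07), the smallest adjusted p of the 10. A share of 10.5% of the exon bases of Ctsa overlaps Pltp on the other strand, and Pltp itself had 121 to 221 normalised reads in WT and 418 to 852 in MYH11, few beside Ctsa. For Ctsb, 12.8% of the exon bases overlap Fdft1 on the other strand, which had 992 to 1371 reads over all libraries. Other overlaps involve annotated genes that the deposited table does not hold. Of the exon bases of Ctsd, 34.4% are shared with Gm49369 on the same strand. Of those of Ctsl, 26.8% are shared with the antisense gene Gm47123 and 6.09% with the pseudogene Gm49230 on the same strand. The sources used here do not say whether counting used strand, so reads from all these overlaps cannot be assigned.

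Lgmn (chr12:102394084-102439813, minus strand) encodes legumain, which cuts after asparagine and converts several cathepsins to their mature chains. It stood at 846, 1153 and 1153 normalised reads in WT, at 848, 891 and 1087 in mDE, and at 7124, 3700 and 5967 in MYH11. The MYH11 libraries were all above the others but varied, with replicate 2 at 0.565 times the mean of the other MYH11 libraries. The rise was 5.33-fold (log2 difference 2.37, SE 0.23, limma adjusted p = 2.1e-05), the second largest of the 10. The mDE difference from WT was -0.15 on the log2 scale, with an interval from -0.66 to 0.36.

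**Figure D2:**
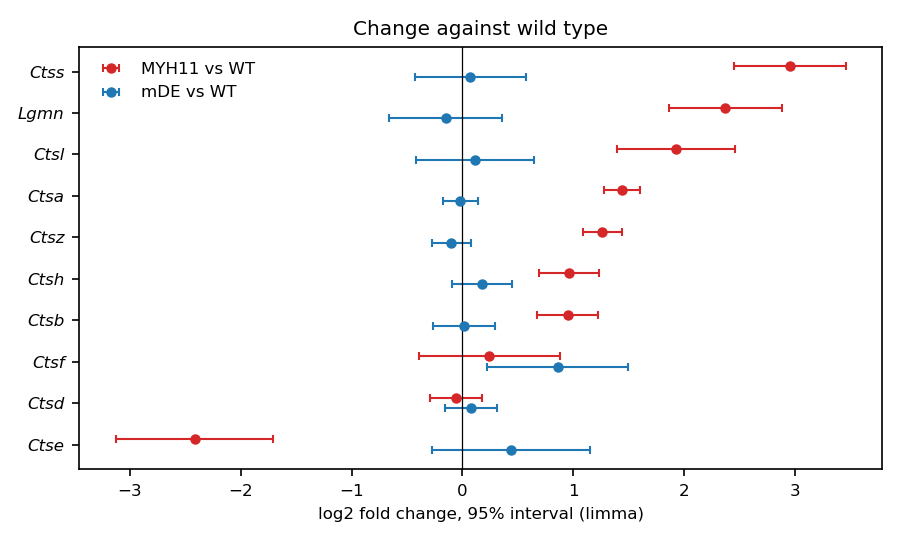
Log2 differences from WT of the 10 genes with 95% intervals from limma, for MYH11 (red) and mDE (blue). The MYH11 intervals of 8 genes exclude 0, with Ctss at 2.96 and Ctse at -2.42 as the extremes, and the mDE intervals of all but Ctsf include 0.

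The direct comparison of the mutant genotypes gave 8 of 10 called in MYH11 against mDE, 7 higher and 1 lower, where 55.6% of all tested genes were called, 29.6% higher and 26% lower. Ctss was 7.20-fold higher in MYH11 than in mDE, Lgmn 5.94-fold, Ctsl 3.6-fold, Ctsa 2.75-fold, Ctsz 2.58-fold, Ctsb 1.94-fold and Ctsh 1.72-fold. The limma adjusted p of these 7 lay between 7.26e-07 for Ctsa and 4.01e-04 for Ctsh. The log2 difference of Ctsd was -0.14, with an interval from -0.37 to 0.10. In mDE against WT 1.24% of all tested genes were called and 0 of the 10. At an unadjusted p under 0.05 there was 1 (Ctsf) against 19.8% of all tested genes, and edgeR and DESeq2 on the recovered reads also called 0. The MYH11 and mDE values above share the same 3 WT libraries.

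Because longer genes collect more reads, levels of different genes were compared as normalised reads per kb of merged exon. In WT the order was Ctsd at 11120 ± 975 (SD, n = 3), Ctsz at 4563 ± 171, Ctse at 4339 ± 244, Ctsb at 3758 ± 220 and Ctss at 2418 ± 518, followed by Ctsh at 1253 ± 148, Ctsa at 1065 ± 19.5, Lgmn at 452 ± 76.2, Ctsl at 132 ± 35.3 and Ctsf at 19.9 ± 5.46. Ctsz and Ctse overlapped between libraries, and the other neighbours in this order did not, although Ctsh and Ctsa were separated only narrowly. In mDE the order had the same genes in the first 5 places, with Ctse at 6543 ± 3820 spanning 3809 to 10910 and so overlapping Ctsz and Ctsb.

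In MYH11 the order was different. Ctss led at 18570 ± 2200 reads per kb, above Ctsz at 10990 ± 1100 and Ctsd at 10700 ± 1420, which overlapped each other. Ctsb followed at 7355 ± 1390, and then Ctsa at 2898 ± 257, Ctsh at 2439 ± 194 and Lgmn at 2409 ± 750, where Lgmn overlapped both. Ctse was now at 817 ± 115, above Ctsl at 509 ± 140 and Ctsf at 24.1 ± 8.19. Measured by the longest transcript instead, Ctss still led in MYH11 and Ctsd in WT, but Ctse (6469 reads per kb) came second in WT, and Ctsz (4563) came after Ctsb (4794). By that length Ctsd (11820) came before Ctsz (10990) in MYH11, and Ctsh (4000 ± 318) before Ctsa (3748 ± 333), the reverse of the order given above, with both pairs overlapping between libraries.

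**Figure D3:**
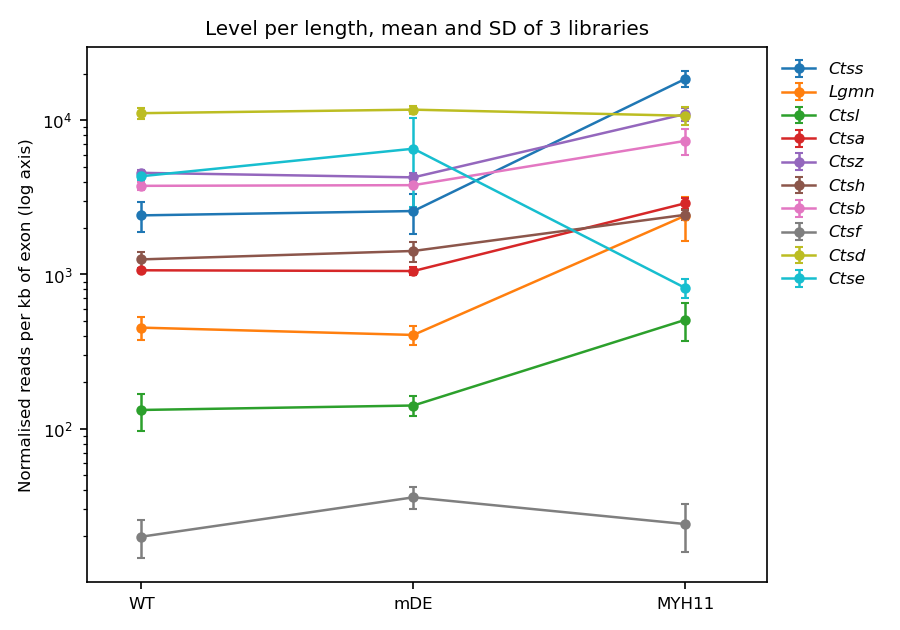
Level of each gene as normalised reads per kb of merged exon, on a log axis, for the 3 genotypes. Points are means and bars are the SD of 3 libraries. Ctss moves from rank 5 in WT and mDE to rank 1 in MYH11, and Ctse from rank 3 in WT and rank 2 in mDE to rank 8 in MYH11.

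The makeup of the reads of the 10 genes differed in step with these values. Ctss made up 3.84% ± 0.657 of their reads in WT and 17.2% ± 0.427 in MYH11 (SD, n = 3), while Ctse went from 16.2% ± 1.76 to 1.79% ± 0.351. Ctsd, which did not pass the test in reads, made up 30.7% ± 1.23 in WT and 17.1% ± 0.616 in MYH11. Ctsb had 26.7% ± 0.24 and 30.1% ± 1.49. Together the 10 genes took 0.186% to 0.193% of all reads in the WT libraries, 0.189% to 0.232% in mDE and 0.327% to 0.428% in MYH11. The highest mDE value, 0.232%, was that of replicate 3, the library with high Ctse.

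Within each of the 3 genotypes, a single library was the highest or lowest for at least 6 of the 10 genes. MYH11 replicate 1 was the highest of its group for 10 of the 10 genes, against 35.8% of all tested genes, and replicate 2 was the lowest for 9 of 10, against 41.1%. In mDE, replicate 3 was highest for 8 of 10, against 40.4% of all tested genes, and replicate 1 was lowest for 6, against 37.8%. In WT no library was highest for more than 4 of the 10, and replicate 1 was lowest for 6, against 37.8% of all tested genes. In MYH11 replicate 2, Lgmn was at 0.565, Ctsf at 0.556, Ctsl at 0.594 and Ctsb at 0.731 times the mean of the other MYH11 libraries, while Ctse was at 1.07 times. The median coefficient of variation in MYH11 was 13.6% over the 10 genes and 9.27% over all tested genes. The same library was also low for the macrophage genes C1qa, at 0.557 times the others, and Mrc1, at 0.543 times. The mast cell gene Cpa3 was at 0.468 times, and the neutrophil gene Ly6g was high, at 2.63 times. Not all markers of macrophages and mast cells followed. Of the monocyte and macrophage markers, Lyz2 was at 1.35, Ly6c2 at 1.14, Fcgr1 at 1.03, Cx3cr1 at 0.907 and Ccr2 at 0.882 times. Of the mast cell markers, Mcpt1 was at 0.973 and Mcpt2 at 1.0 times. The part of these in the cathepsin values was not tested. Without MYH11 replicate 2 the same number of the 10 genes, 8, was called against WT.

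As measured over the 9 libraries by the distance between centred log2 profiles, the most alike of the 45 pairs among the 10 were Ctsa and Ctsz, at a distance of 0.261, and then Ctsb and Ctsh at 0.461. The gene of the 10 nearest to Ctss was Lgmn, at 0.946. The farthest apart were Ctss and Ctse at 7.95. Among all other tested genes, the profiles nearest to Ctss were those of Tmem106a (0.361), Slc8a1 (0.486) and Nupr1 (0.525), where the median distance was 4.24. Tmem106a, for example, had 1715 ± 172 normalised reads in MYH11, beside 221 ± 38 in WT and 227 ± 44.0 in mDE. Nearest to Ctse were Zscan10 (0.9), Gm8817 (0.956) and the chemokine receptor gene Cxcr5 (1.04), with a median of 4.03 over all genes. Cxcr5 had 114, 159 and 108 reads in WT, 103, 97.1 and 238 in mDE, and 13.6, 26.4 and 18.6 in MYH11. Like Ctse, it was highest in mDE replicate 3.

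Other genes of the lysosome, or linked to it, were taken from 8 lists (the lysosomal lists) with 121 genes in all, of which all were tested. Among them are 12 cathepsin inhibitors, 5 transcription factors and 10 class II genes, which are not all lysosomal themselves. The class II list alone gave 9 of the rises and 0 of the falls counted next. Against WT, 57 of the 121 rose and 25 fell in MYH11, which is 67.8% called beside 59.8% of all tested genes, and the median log2 difference was 0.23. Over all tested genes 32% were called upwards and 27.8% downwards, and the counts of each list below are to be read against these shares. In mDE against WT, 1 rose and 2 fell, which is 2.48% beside 1.24%.

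Among 12 genes, other lysosomal peptidases and a related reductase, 8 rose and 2 fell in MYH11 (83.3% called, beside 59.8% of all tested genes). Ctsc, which encodes the dipeptidyl peptidase that activates granule proteases, was at 2658, 2891 and 2625 normalised reads in WT, at 2932, 3204 and 3351 in mDE, and at 36195, 30249 and 36241 in MYH11 (log2 difference from WT 3.65, limma adjusted p = 2.12e-08). Ifi30, the thiol reductase that opens disulfide bonds of antigens for presentation, rose from 1990 ± 124 to 14968 ± 2243 (log2 difference 2.90). Scpep1, a carboxypeptidase related to Ctsa, rose from 751 ± 42.9 to 3631 ± 93.6 (log2 difference 2.27). The genes that fell were Ctsk, the collagen-cutting cathepsin of osteoclasts, and Ctsw, a cathepsin of cytotoxic lymphocytes. Ctsk varied widely in WT, at 1359, 304 and 721 reads, with 157, 162 and 191 in MYH11 (log2 difference -1.97, limma adjusted p = 0.0221) and 83.8, 346 and 385 in mDE. Ctsg, a serine protease of neutrophil granules and no lysosomal cathepsin by family, did not pass, with a log2 difference of -0.24.

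Of the 12 cathepsin inhibitors 4 rose and 2 fell in MYH11 (50% called, beside 59.8% of all tested genes), with a list median of -0.03. Cystatin B (Cstb), the cytosolic inhibitor of cathepsins B, H and L, rose from 990 ± 34.7 to 1641 ± 113 normalised reads, and cystatin C (Cst3), the secreted one, from 10440 ± 366 to 13425 ± 1439. Cst6, which inhibits legumain and cathepsin L in humans, had 0, 0.960 and 2.35 normalised reads in WT, at or under the limit that a count of 0 allows (3 reads, 2.56 to 3.52 normalised reads by library), and 132, 113 and 118 in MYH11. Serpinb6a fell from 1898 ± 84.4 to 780 ± 99.7. In mDE, Cst7, an inhibitor of cathepsin C and related enzymes, fell from 4422 ± 426 to 3056 ± 397 reads (log2 difference -0.54, limma adjusted p = 0.0393). The stefin gene BC117090 rose in mDE from 6.75, 6.72 and 1.17 reads to 63.9, 82.7 and 88.7 (log2 difference 3.96, limma adjusted p = 0.0371), and it has near-identical neighbours whose reads may be shared with it.

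Of 14 genes that sort enzymes to the lysosome, 3 rose and 4 fell in MYH11 (50% called, beside 59.8% of all tested genes). Igf2r, the large receptor for mannose 6-phosphate tags, was at 4366, 4905 and 5422 normalised reads in WT, at 2840, 2974 and 3017 in mDE, and at 216, 350 and 191 in MYH11. The 3 groups did not overlap. The fall against WT in MYH11 was 19.4-fold (log2 difference -4.32, SE 0.19, limma adjusted p = 3.7e-07), and the mDE difference of -0.73 did not pass (interval -1.16 to -0.30, limma adjusted p = 0.096). The small receptor for the same tag, M6pr, had 15171, 14937 and 15954 reads in WT and 17497, 16078 and 16600 in MYH11 (limma adjusted p = 0.0658). Sortilin (Sort1), a receptor that carries some enzymes without the tag, fell from 19386 ± 1133 to 10414 ± 1488 reads, and Gga2, an adaptor for these receptors, from 3603 ± 134 to 2629 ± 24.2. Gnptab, a subunit of the enzyme that makes the tag, rose from 3608 ± 145 to 5375 ± 391.

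Among 15 membrane proteins of the lysosome 10 rose and 3 fell (86.7% called, beside 59.8% of all tested genes). Cd68, a glycoprotein of macrophage lysosomes, rose from 1503 ± 196 to 6622 ± 1008 normalised reads, the cholesterol exporter Npc1 from 1248 ± 159 to 3528 ± 444, and Lamp1, a major coat protein of the lysosome, from 20092 ± 567 to 33140 ± 2811. Cd63, a tetraspanin of late endosomes and granules, fell from 13938 ± 967 to 1470 ± 333 (log2 difference -3.27, limma adjusted p = 4.2e-07). Of 18 genes of the proton pump, which acidifies the lysosome, 3 rose and 8 fell, with a median of -0.15. The share called was 61.1%, near the 59.8% of all tested genes. Atp6ap2, an accessory subunit, fell from 10951 ± 699 to 4913 ± 306 reads in MYH11 and to 7814 ± 234 in mDE (limma adjusted p = 0.0129 for mDE). Atp6v0d2, a subunit isoform known from osteoclasts and macrophages, rose from 96.0 to 1169 reads on the mean, whereas Atp6v1e1 fell from 7735 ± 322 to 4792 ± 128 and Atp6v1c1 from 3769 ± 18 to 3002 ± 58.5.

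Of 35 other hydrolases and their activators 18 rose and 5 fell (65.7% called, beside 59.8% of all tested genes), with a median of 0.28. Psap, the precursor of the saposins that present lipids to lysosomal enzymes, rose from 42198 ± 3977 to 174545 ± 22411 normalised reads. Gm2a, the activator for ganglioside breakdown, rose from 3928 ± 222 to 13595 ± 1054, and Npc2, the soluble cholesterol carrier, from 8684 ± 286 to 16818 ± 916. Among 5 transcription factors of lysosomal genes, Mitf rose from 224 ± 15.2 to 1788 ± 423 (log2 difference 2.97, limma adjusted p = 7.13e-07) and Tfec from 1902 ± 204 to 2684 ± 250. Tfeb fell from 1421 ± 158 to 1079 ± 13.4, and Tfe3 was at 2867 ± 246 and 2890 ± 133. Mitf is also a factor of mast cells.

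**Figure D4:**
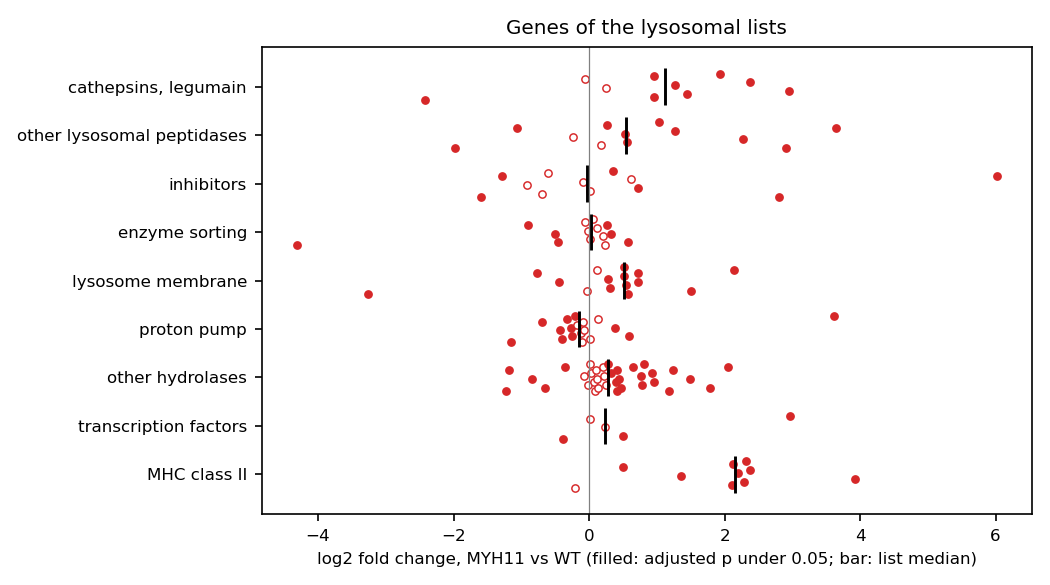
Log2 differences of MYH11 against WT for the 10 genes and the 8 lysosomal lists, 1 point per gene. Filled points passed at an adjusted p under 0.05, and black bars are list medians, 1.11 for the 10 genes, 2.16 for the class II list and -0.15 for the proton pump.

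Ctss, Lgmn, Ctsl, Ctsf and Ifi30 can act on the class II pathway, so its genes were set beside them. All of these but Ctsf rose in MYH11 against WT. Ctsf did not pass (log2 difference 0.24, limma adjusted p = 0.48). Of 10 class II genes 9 rose in MYH11 (90% called, beside 59.8% of all tested genes), with a median of 2.16. The invariant chain Cd74 was at 8582, 15738 and 13218 normalised reads in WT, at 7788, 9043 and 18317 in mDE, and at 63744, 55098 and 59164 in MYH11. Ciita, the factor that switches class II genes on, rose from 239 ± 36.1 to 3660 ± 501 (log2 difference 3.93), H2-DMb1, a chain of the peptide exchanger, from 648 ± 44.7 to 3371 ± 170, and its partner H2-DMa from 1470 ± 6.56 to 6424 ± 234. In mDE 0 of the 10 class II genes passed, beside 1.24% of all tested genes.

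The cells behind the libraries also differed by their markers. Of all tested genes, 32% were called upwards and 27.8% downwards in MYH11 against WT, and the marker counts are to be read against these shares. In bulk RNA, fewer cells of a type and less RNA per cell cannot be told apart. Kit itself was present in every library, at 7504 ± 253 normalised reads in WT and 3538 ± 321 in MYH11. The mouse gene Myh11, which encodes smooth muscle myosin, was at 7.02 ± 2.06 in WT, 37.9 in mDE and 196 ± 21.3 in MYH11. How reads of the fusion alleles map to this gene was not tested, so these values do not compare the levels of the alleles. Cbfb was at 6867 ± 305 in WT, 5227 in mDE and 6569 ± 299 in MYH11, and its partner Runx1 at 2935 ± 97.6, 3580 and 6575 ± 920. Of 11 neutrophil markers 11 fell in MYH11, and their share of all reads was 10.3% to 12.2% in WT, 11.6% to 14.5% in mDE and 0.437% to 1.98% in MYH11. Mast cell markers (8 of 9 tested, 8 of 8 higher) took 0.00948% to 0.0115% of reads in WT and 0.258% to 0.418% in MYH11. One of the mast cell genes, Mcpt1, had 20.3, 0.960 and 0 reads in WT. Of 13 monocyte and macrophage markers 10 rose and 2 fell, and the list took 0.699% to 0.922% of reads in WT and 0.678% to 0.786% in MYH11. Most of these reads in WT were from Lyz2, which fell from 325999 ± 59715 to 150459 ± 30922 normalised reads, so the share does not show the rises. Among the markers that rose, Csf1r was 6.44-fold, Ccr2 14.6-fold and Fcgr1 16.6-fold higher, and the other marker that fell was Cx3cr1. Class II genes took 0.0455% to 0.0731% and 0.308% to 0.351%. Osteoclast markers, with 1 of 4 tested, stayed at or under 0.000143% in every library. Of 8 erythroid markers 4 rose and 2 fell, and the list took 0.0782% to 0.0903% of reads in WT and 0.240% to 0.371% in MYH11, with Alas2, the first enzyme of haem synthesis in red cells, 15.3-fold higher. Of 4 eosinophil markers 3 fell and 1 rose (0.0434% to 0.0890% of reads in WT and 0.0179% to 0.0208% in MYH11), and Ear6 fell from a mean of 1477 normalised reads to one under the limit that a count of 0 allows. Of 3 basophil markers 2 fell and 1 rose (0.0183% to 0.0230% of reads in WT and 0.0140% to 0.0208% in MYH11). Of 5 stromal and vessel markers 2 rose and 1 fell (0.00372% to 0.00483% of reads in WT and 0.0110% to 0.0138% in MYH11). The chemokine gene Cxcl12 was 13.9-fold higher and the collagen gene Col1a1 7.86-fold lower. Of 5 B cell markers 1 rose and 1 fell (0.00781% to 0.00982% of reads in WT and 0.00653% to 0.0113% in MYH11). Of 6 dendritic cell markers 4 rose and 1 fell, and of 6 progenitor markers 2 rose and 4 fell. The part of these cell types in the cathepsin differences was not tested.

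**Figure D5:**
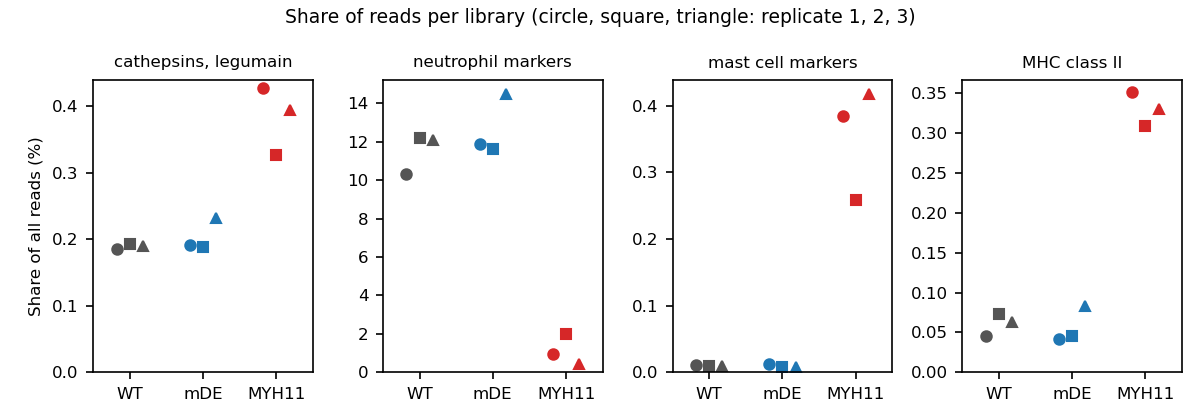
Share of all reads in each library, in percent, taken by the 10 genes, by neutrophil markers, by mast cell markers and by MHC class II genes, with symbols for replicates 1 to 3. The MYH11 libraries are at 0.327% to 0.428% for the 10 genes, above 0.232%, the highest of the other libraries, and at or under 1.98% for the neutrophil markers.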

How the data were processed

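The 9 libraries are RNA sequencing of c-KIT-selected mouse bone marrow. Per the submitters' processing notes, CASAVA 1.8.2, STAR 2.4, RSEM and DESeq2 were used on GRCm38, without their roles. Each deposited value is a signal of 1 gene in 1 library, which the values show to be counts the authors divided by 1 factor per library. The deposited table also holds a log2 fold change and a p-value column, per the file headers, whose comparison is not named there, and they were not used. Whole reads were recovered for 100% of values (relative tolerance 1e-06), and totals were 39300366 to 50073097 reads. A count of 0 allows up to 3 reads, which covers counting error only.

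Genes were kept with filterByExpr (edgeR 4.0.16), and limma-trend (limma 3.58.1, R 4.3.3) was fitted to log2(value + 1) of all 9 libraries by genotype alone (6 residual degrees of freedom). The procedure was tested on simulated data in which few genes differed, so that test does not cover changes as widespread as those in MYH11. Alternatives were TMM, DESeq2 and upper-quartile scaling, no filter, a filter of 5 CPM in 3 libraries, pseudocounts of 0.5 and 4, edgeR, DESeq2 (1.42.0) and voom on the recovered reads, fits of only the compared groups, a replicate block, leaving out each library, and, for levels, the longest transcript as length. Exons came from GENCODE M21. Genes were named by a rule: the 10 genes, Ctsc, Ctsk, the label checks Kit, Cbfb, Runx1 and Myh11, the 3 nearest profiles to Ctss and Ctse, and from each lysosomal list up to 3 called genes with the smallest adjusted p in MYH11 against WT and no overlap between libraries. Other named genes (Ctsw, Ctsg, Cst3, Cst7, BC117090, M6pr, Gnptab, Lamp1, Atp6v0d2, Tfe3, Cd74, and the marker, overlapping and placental genes) were chosen after their values were seen. The members and lists were chosen with earlier results of these data known.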

Additional observations from a re-analysis of the deposited data

How the results depend on the processing

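Of 627 results for single genes under the alternatives, 625 kept their direction or lack of a call, 2 gained a call and 0 reversed. The called number among the 10 genes was 8 under every alternative for MYH11 against WT and 0 under every alternative for mDE against WT. For MYH11 against mDE it was 8, except 9 with the replicate block and without MYH11 replicate 1, where Ctsf was added. The correlation of deviations was -0.15 to 0.13 between same-numbered libraries and -0.178 to 0.207 between differently numbered ones. With 3 libraries per group, these values cannot decide whether replicate numbers pair the libraries. With the replicate block, 82 list genes were called for MYH11 against WT and 2 for mDE against WT, and the log2 difference of Ctsf between MYH11 and mDE was -0.62 (limma adjusted p = 0.0327). Without mDE replicate 3 the log2 difference of Ctse between mDE and WT was -0.0031. Of the 121 list genes, 3 were called for mDE against WT in the reported fit and 18 with the DESeq2 Wald test (6 up, 12 down). With single libraries left out, 0 to 6 were called. The number was 0 without WT replicate 3 and 6 without MYH11 replicate 2. It was 1 without WT replicate 1 or 2, mDE replicate 1 or MYH11 replicate 1. The cause was not tested. Levels per kb moved with the length used, most for Ctsf, from 19.9 to 48.1 reads per kb in WT. Over all tested genes, 198 were called for mDE against WT and 941 with DESeq2, so small differences in mDE are the least settled. Depth limits Cst6 and BC117090 in WT, and 3 libraries per group limit the rest.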
